A study of Mus musculus with 6 samples.

Results

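The genes described here form the circadian clock of inguinal white adipose tissue: 10 core clock and clock output genes, chosen by name, of 16627 genes in the deposited count table. They are Arntl (also called Bmal1), Npas2, Per1, Per2, Per3, Cry1, Nr1d1, Nr1d2, Dbp and Ciart, and all 10 were in the table and passed the filter on low counts. RNA was sequenced from 6 libraries of mouse inguinal fat, 3 from mice in which Celf1 was knocked out in adipocytes (Celf1 AKO) and 3 from littermate controls with the floxed gene (Flox control). CELF1 protein binds RNA and is known for its roles in mRNA splicing and decay, and the series asked about its part in the beiging of this fat depot. Every mouse, controls included, had spent 6 hours at 4 °C, so no library shows the clock without cold. The sources used here do not give the driver of the adipocyte deletion, the strain, sex and age of the mice or the hour of the day at which tissue was taken. Nothing in the labels says in so many words that each library is a separate mouse, so the p-values cover variation among libraries, which may be technical.

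The clock is a loop of transcription factors. BMAL1, the product of Arntl, pairs with CLOCK or its relative NPAS2 and binds E-boxes, DNA sites with the letters CACGTG, in the genes of its own repressors, PER and CRY. The same pair drives the nuclear receptors REV-ERBα (Nr1d1) and REV-ERBβ (Nr1d2), which repress Arntl and Npas2, and outputs such as Dbp, an activator that binds D-boxes, and Ciart, a repressor also called CHRONO. In mouse tissues the transcripts of Nr1d1, Dbp and Ciart run nearly opposite to those of Arntl and Npas2, and those of Per2 and Cry1 follow with a delay. Per1 is also induced directly by cAMP and by glucocorticoids. In brown fat REV-ERBα is known as a repressor of the heat-producing gene programme.

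Library totals ran from 54835348 to 64979443 counts, and the members rested on 58 counts (Npas2 in Flox control replicate 2) to 18824 counts (Per1 in Celf1 AKO replicate 2). Celf1, the targeted gene, was lower in all 3 knockout libraries, at 49.8 to 63.0 CPM (counts scaled to library size with TMM factors) against 114 to 144 CPM in the controls. Its log2 fold change of -1.21 (SE 0.14) had an edgeR adjusted p = 0.122, or 0.0174 without Celf1 AKO replicate 3. All 7 adipocyte markers of a list were present. Their summed level was 26540 to 33230 CPM in Celf1 AKO and 30970 to 34750 CPM in Flox control, with overlap. Their mean log2 level was 10.79, 11.26 and 11.21 in Celf1 AKO and 11.30, 11.51 and 11.30 in Flox control. By that mean every knockout library was below every control. Of the 7 markers, 2 had a positive log2 fold change (median -0.10), and in CPM 1 was higher and 0 lower without overlap. Celf1 AKO replicate 3 stood apart from the other knockout libraries: the correlation of log2 CPM across genes was 0.983 to 0.986 against the controls, but 0.978 and 0.976 against Celf1 AKO replicates 1 and 2. It also held the most Acta1 (1039 CPM against 23.1 to 75.2 CPM elsewhere), the 1 tested gene of 5 skeletal muscle markers, and the highest summed level of 5 neutrophil markers (108 CPM against 3.20 to 24.9 CPM). Results that rest on that library are therefore given with and without it.

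No member passed the test over all genes. In edgeR's quasi-likelihood test on all 6 libraries, 0 of 10 members had an adjusted p under 0.05, where 0.0122% of 16366 tested genes were called higher and 0% lower. Log2 fold changes were positive for 7 members and negative for 3, with a median of 0.45 beside a median of -0.02 over all genes tested, of which 47.5% were positive. At an unadjusted p under 0.05, 3 members were higher (Per1, Nr1d1 and Ciart) and 1 lower (Per3), beside 6.75% and 6.17% of all genes. DESeq2 called Per1 (log2 fold change 0.84, adjusted p = 0.0285) and Nr1d1 (1.70, adjusted p = 0.0144) higher and none lower, beside 2.17% and 0.985% of the genes to which it gave an adjusted p. Without Celf1 AKO replicate 3, edgeR called Nr1d1, Per1 and Ciart higher and 0 lower, beside 1.43% and 1.76% of 16520 genes. Leaving out any other single library, edgeR called 0 members. In CPM the groups did not overlap for 1 member, Per1, which was higher, beside 17.3% of all genes without overlap, 7.81% higher and 9.51% lower.

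**Figure D1:**
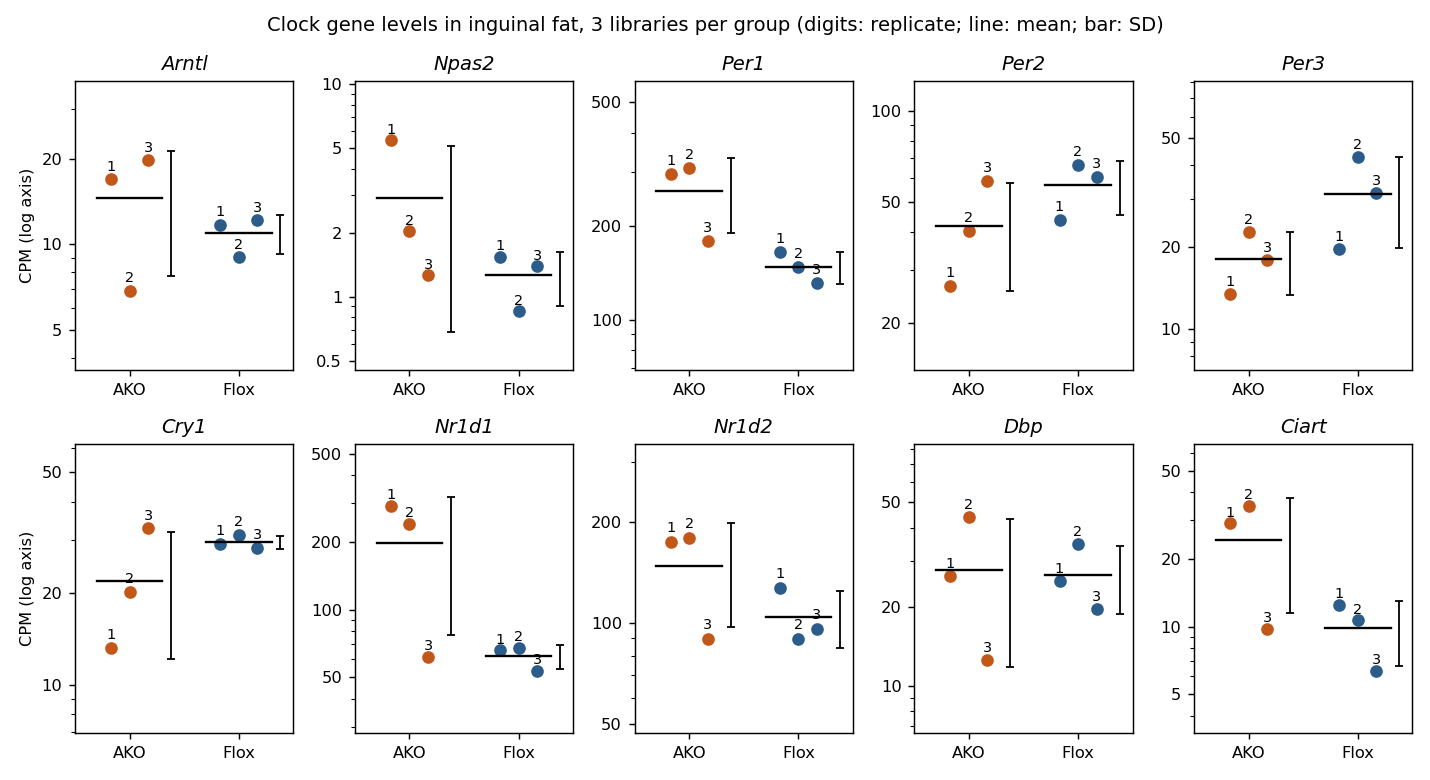
CPM of the 10 clock genes on log axes, with 1 point per library (the digit is the replicate number), the mean as a line and the SD as a bar for 3 Celf1 AKO and 3 Flox control libraries. Nr1d1, Ciart and Per1 are high in Celf1 AKO replicates 1 and 2, while Celf1 AKO replicate 3 lies at 61.4 CPM for Nr1d1, among the controls.

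The REV-ERB receptor gene Nr1d1 had the largest fold change of the members. Nr1d1 (ENSMUSG00000020889, GRCm38 chromosome 11, 98767932 to 98775333, minus strand) was at 291, 242 and 61.4 CPM in Celf1 AKO and 65.8, 67.4 and 53.4 CPM in Flox control, where each set of 3 values follows the replicate numbers, as it does throughout. Celf1 AKO replicates 1 and 2 lay far above all controls, and Celf1 AKO replicate 3 lay between the control values. Over all 6 libraries the log2 fold change was 1.67 (SE 0.49, edgeR adjusted p = 0.293), and without Celf1 AKO replicate 3 it was 2.10 (SE 0.15, edgeR adjusted p = 0.0147). Within a group the highest Nr1d1 library was 4.74 times the lowest in Celf1 AKO and 1.26 times in Flox control. The last part of Nr1d1 overlaps the thyroid hormone receptor gene Thra on the opposite strand over 263 exonic bases, 8.55% of the exonic bases of Nr1d1, and the strand setting of the counting is unknown here. Thra was at 105, 91.3 and 51.1 CPM in Celf1 AKO and 54.6, 64.5 and 55.6 CPM in Flox control, also highest in Celf1 AKO replicates 1 and 2. Thra had a log2 fold change of 0.50 (edgeR adjusted p = 0.436), and of 0.75 (edgeR adjusted p = 0.0351) without Celf1 AKO replicate 3, so it passed in the same fit as Nr1d1. The total of Thra in each library was below that of Nr1d1 except in Flox control replicate 3.

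Nr1d2 (ENSMUSG00000021775, chromosome 14, 18204054 to 18239127, minus strand) encodes the second REV-ERB receptor and had a smaller fold change. It was at 174, 179 and 90.0 CPM in Celf1 AKO and at 127, 89.6 and 96.3 CPM in Flox control. Celf1 AKO replicates 1 and 2 were again the highest libraries, and the groups overlapped through Celf1 AKO replicate 3. The log2 fold change was 0.50 (SE 0.27, edgeR adjusted p = 0.475), or 0.76 (edgeR adjusted p = 0.0581) without Celf1 AKO replicate 3. Within a library, log2 CPM of Nr1d1 minus that of Nr1d2 was 0.74, 0.43 and -0.55 in Celf1 AKO and -0.95, -0.41 and -0.84 in Flox control, a contrast chosen after the values were seen.

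Ciart (ENSMUSG00000038550, chromosome 3, 95878503 to 95882251, minus strand) had the second largest fold change. Its level was 29.1, 34.7 and 9.82 CPM in Celf1 AKO and 12.5, 10.7 and 6.37 CPM in Flox control. Celf1 AKO replicates 1 and 2 were above every control, and Celf1 AKO replicate 3 lay between Flox control replicates 3 and 2. The log2 fold change was 1.32 (SE 0.46, edgeR adjusted p = 0.321), and 1.69 (SE 0.27, edgeR adjusted p = 0.0352) without Celf1 AKO replicate 3.

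Dbp (ENSMUSG00000059824, chromosome 7, 45705088 to 45710203, plus strand), usually in phase with Nr1d1 and Ciart, had a fold change near 0. It was at 26.2, 44.1 and 12.5 CPM in Celf1 AKO and at 25.0, 34.7 and 19.6 CPM in Flox control. Its highest and its lowest library were both Celf1 AKO ones, replicates 2 and 3, and the groups overlapped throughout. Dbp had a log2 fold change of 0.06 (SE 0.42, edgeR adjusted p = 0.966), which was 0.41 without Celf1 AKO replicate 3 and -0.45 without Celf1 AKO replicate 2. Set against Nr1d1 within each library, log2 CPM of Dbp minus that of Nr1d1 was -3.45, -2.44 and -2.25 in Celf1 AKO and -1.38, -0.95 and -1.42 in Flox control. All 3 knockout libraries, replicate 3 included, thus had less Dbp for their Nr1d1 than any control (-2.71 ± 0.65 against -1.25 ± 0.26, SD, n = 3 each), in a ratio chosen after the values were seen and given without a test. Dbp shares 539 exonic bases, 18.0% of its own, with Sphk2 on the opposite strand, a sphingosine kinase gene that was at 23.9 to 31.3 CPM in Celf1 AKO and 33.3 to 36.3 CPM in Flox control, so that without strand the reads of the pair cannot be told apart there.

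The PER genes had fold changes of both signs. Per1 (ENSMUSG00000020893, chromosome 11, 69095217 to 69109960, plus strand) was at 294, 308 and 179 CPM in Celf1 AKO and 166, 148 and 131 CPM in Flox control. All 3 knockout libraries were above all 3 controls, with Celf1 AKO replicate 3 closest to them. Per1 had a log2 fold change of 0.81 (SE 0.22, edgeR adjusted p = 0.260), and 1.02 (SE 0.14, edgeR adjusted p = 0.0259) without Celf1 AKO replicate 3.

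Per2 (ENSMUSG00000055866, chromosome 1, 91415982 to 91459324, minus strand), the repressor whose transcript usually peaks after Nr1d1, was at 26.5, 40.1 and 58.8 CPM in Celf1 AKO and 43.8, 66.3 and 60.9 CPM in Flox control. Celf1 AKO replicates 1 and 2 were the lowest libraries and Celf1 AKO replicate 3 was within the control range. Per2 had a log2 fold change of -0.45 (SE 0.29, edgeR adjusted p = 0.544), -0.78 (edgeR adjusted p = 0.119) without Celf1 AKO replicate 3 and -0.17 without Celf1 AKO replicate 1. Per1 minus Per2 in log2 CPM was 3.45, 2.93 and 1.60 in Celf1 AKO and 1.91, 1.15 and 1.10 in Flox control. The pair was thus most unequal in the same knockout libraries in which Nr1d1 was high, in a contrast that was not among the planned measures.

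Per3 (ENSMUSG00000028957, chromosome 4, 151003652 to 151044665, minus strand), a PER gene that is less needed for the rhythm itself, was at 13.4, 22.7 and 17.9 CPM in Celf1 AKO and 19.7, 42.6 and 31.5 CPM in Flox control. Here Celf1 AKO replicate 3 was low as well, and the overlap came from Flox control replicate 1, which was below Celf1 AKO replicate 2. The log2 fold change was -0.80 (SE 0.30, edgeR adjusted p = 0.341) and was -0.79 without Celf1 AKO replicate 3. It depended more on the controls, at -0.51 when Flox control replicate 2 was left out and -1.04 when Flox control replicate 1 was. Cry1 (ENSMUSG00000020038, chromosome 10, 85131700 to 85185064, minus strand), the cryptochrome that closes the loop late in the cycle, was at 13.2, 20.2 and 32.7 CPM in Celf1 AKO and 29.0, 31.1 and 28.2 CPM in Flox control. The controls were close together, Celf1 AKO replicates 1 and 2 were below them and Celf1 AKO replicate 3 above. Cry1 had a log2 fold change of -0.42 (SE 0.29, edgeR adjusted p = 0.578), -0.82 (edgeR adjusted p = 0.0637) without Celf1 AKO replicate 3 and -0.12 without Celf1 AKO replicate 1.

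The activators showed no common order of libraries. Arntl (ENSMUSG00000055116, chromosome 7, 113207465 to 113314126, plus strand) was at 16.9, 6.88 and 19.7 CPM in Celf1 AKO and 11.7, 9.02 and 12.2 CPM in Flox control. Celf1 AKO replicate 2 was the lowest of all libraries and Celf1 AKO replicates 1 and 3 the highest, so that the 2 libraries alike in Nr1d1 stood at opposite ends in Arntl. Arntl had a log2 fold change of 0.40 (SE 0.36, edgeR adjusted p = 0.665), which was 0.11 without Celf1 AKO replicate 3 and 0.74 without Celf1 AKO replicate 2. Npas2 (ENSMUSG00000026077, chromosome 1, 39193731 to 39363236, plus strand), the partner of BMAL1 that can replace CLOCK, was at 5.44, 2.03 and 1.26 CPM in Celf1 AKO and 1.54, 0.86 and 1.39 CPM in Flox control. Its log2 fold change was 1.20 (SE 0.55, edgeR adjusted p = 0.408), and 0.42 without Celf1 AKO replicate 1, by far its highest library.

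Nearly all members were more variable among the knockout libraries than among the controls. The SD of log2(CPM + 0.5) was larger in Celf1 AKO for 9 of 10 members, Per3 being the exception, beside 63.3% of the 13082 genes with a mean of at least 1 CPM. The median SD of the members was 0.71 in Celf1 AKO and 0.29 in Flox control, and that of those 13082 genes was 0.21 and 0.16. Nr1d1 had the largest SD of the members in Celf1 AKO (1.22), and Cry1 the smallest in Flox control (0.07). At the median the members thus spread more than these genes in both groups.

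On the length-corrected scale of the deposited FPKM values, Per1 was the most abundant member in the controls at 31.7 ± 2.38 FPKM (SD, n = 3). Nr1d1 (22.9 ± 2.79 FPKM) and Nr1d2 (22.3 ± 2.87 FPKM) came next and their control libraries overlapped. They were followed by Dbp (14.9), Per2 (9.88), Cry1 (9.79), Per3 (5.30), Ciart (5.05) and Arntl (3.78 FPKM), where neighbours also overlapped except Cry1 and Per3. Npas2 was lowest at 0.30 ± 0.075 FPKM, below every other member in each control library. In Celf1 AKO, Nr1d1 had the highest mean (71.5 ± 43.2 FPKM), and Per1 the second (55.1 ± 13.2 FPKM), with an SD for Nr1d1 wider than the gap between them.

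Promoter sequences are shown for the 5 members in which an E-box, an E-box-like site or a D-box was found, to place the loop's own binding letters beside the values. RefSeq promoter windows on GRCm38.p6, 250 bases before to 50 after an annotated start, were found for 9 of 10 members (all but Per2), with 2 starts each for Arntl and Per1. Both strands were searched. The E-box CACGTG was in 3 of 9 members (Per1, Cry1 and Ciart) and in 7.15% of 32817 mouse promoter windows of the same length. The E-box-like letters CACGTT were in 2 (Cry1 and Nr1d1) and in 4.69% of windows, and a D-box, TTATGTAA or TTACGTAA, was in 1 (Per3) and in 1.05%. A REV-ERB and ROR element with the letters TAGGTCA was in 1 member, Arntl, downstream of its second start, and in 2.61% of windows. The full cAMP element TGACGTCA was in 0 of 9 and in 1.79% of windows, and its first 5 letters TGACG were in 2 (Per1 and Cry1) and in 20.8%. The printed runs end before the first annotated exon base, read 5′ to 3′ on the gene's strand, and have E-boxes, E-box-like sites (AACGTG as read on this strand) and D-boxes in capitals.
Ciart, chr3:95882252-95882478, minus strand: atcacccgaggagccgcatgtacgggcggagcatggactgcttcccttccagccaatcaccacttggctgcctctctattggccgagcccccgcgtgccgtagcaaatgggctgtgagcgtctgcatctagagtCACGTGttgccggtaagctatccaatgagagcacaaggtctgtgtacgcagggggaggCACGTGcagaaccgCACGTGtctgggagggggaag
Per1, chr11:69098699-69098947, plus strand: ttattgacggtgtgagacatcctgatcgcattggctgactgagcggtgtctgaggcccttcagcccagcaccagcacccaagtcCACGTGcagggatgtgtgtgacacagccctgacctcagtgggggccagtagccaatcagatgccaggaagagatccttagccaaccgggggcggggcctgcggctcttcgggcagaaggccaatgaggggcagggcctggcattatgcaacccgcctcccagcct
Cry1, chr10:85185065-85185304, minus strand: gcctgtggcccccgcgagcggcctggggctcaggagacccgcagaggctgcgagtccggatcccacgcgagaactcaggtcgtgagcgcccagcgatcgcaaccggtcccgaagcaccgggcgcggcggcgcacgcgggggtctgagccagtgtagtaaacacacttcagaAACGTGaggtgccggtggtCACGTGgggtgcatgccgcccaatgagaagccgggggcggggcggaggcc
Nr1d1, chr11:98775378-98775627, minus strand: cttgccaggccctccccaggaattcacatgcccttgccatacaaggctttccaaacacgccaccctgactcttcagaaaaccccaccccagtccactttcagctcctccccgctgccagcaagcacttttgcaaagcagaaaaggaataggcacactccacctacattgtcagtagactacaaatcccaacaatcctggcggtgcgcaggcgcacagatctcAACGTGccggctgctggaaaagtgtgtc
Per3, chr4:151044666-151044915, minus strand: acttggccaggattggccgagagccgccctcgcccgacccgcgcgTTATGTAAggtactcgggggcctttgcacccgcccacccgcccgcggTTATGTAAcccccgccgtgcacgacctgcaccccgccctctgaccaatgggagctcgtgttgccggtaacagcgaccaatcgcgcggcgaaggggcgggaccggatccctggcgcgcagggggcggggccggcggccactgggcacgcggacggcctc
Ciart holds 3 E-boxes in this window, the nearest starting 44 bases before the start site, and Per1 holds 1, starting 166 bases before its first start. Both genes had positive log2 fold changes (1.32 and 0.81), whereas Cry1, with an E-box starting 60 bases before its start and an E-box-like site 79 bases before it, had -0.42. Nr1d1, the member with the largest fold change (1.67), had an E-box-like site but no E-box. Npas2 (1.20), Nr1d2 (0.50) and Arntl (0.40) had no E-box, E-box-like site or D-box in these windows. Per3, the member with 2 D-boxes, had -0.80, and Dbp, whose product binds D-boxes, had 0.06. These matches are descriptions of short windows, and more distant sites were not searched.

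The order of the libraries by phase-opposed genes did not follow genotype. The mean log2(CPM + 0.5) of Arntl and Npas2 minus that of Nr1d1, Nr1d2, Dbp, Ciart and Per3 was -2.46, -4.00 and -2.17 in Celf1 AKO replicates 1, 2 and 3 and -2.83, -3.48 and -2.60 in Flox control replicates 1, 2 and 3. From low to high the libraries ran Celf1 AKO 2, Flox control 2, Flox control 1, Flox control 3, Celf1 AKO 1 and Celf1 AKO 3. Group means were -2.88 ± 0.98 and -2.97 ± 0.46 (SD, n = 3 each), a difference of 0.09 that was within the spread of either group. Each arm alone had a higher mean in Celf1 AKO, by 0.53 for Arntl and Npas2 and by 0.43 for the genes subtracted, with overlap. The subtraction thus cancelled differences of the same sign. Over the 6 libraries Npas2 ran with Nr1d1 (Pearson r = 0.83), whereas Arntl (-0.17) and Per3 (-0.53) did not. A difference near 0 therefore cannot show whether phase was shifted. Arntl minus Dbp gave the same order, from -2.59 in Celf1 AKO replicate 2 to 0.63 in Celf1 AKO replicate 3, with the controls at -1.89 to -0.67. The Celf1 AKO libraries thus formed both ends of that order, with the controls and Celf1 AKO replicate 1 between them. Npas2 minus Ciart did not give it: Celf1 AKO replicate 2 was again lowest (-3.80), but Flox control replicate 3 was highest (-1.86), and the difference between the groups was -0.36.

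Pairs that include Nr1d1 gave another order. Arntl minus Nr1d1 was -4.06, -5.04 and -1.61 in Celf1 AKO and -2.44, -2.84 and -2.09 in Flox control, with Celf1 AKO replicates 1 and 2 at the low end and Celf1 AKO replicate 3 at the high end. Nr1d1 minus Per2 was 3.43, 2.58 and 0.06 in Celf1 AKO and 0.58, 0.02 and -0.19 in Flox control, and Nr1d1 minus Cry1 was 4.41, 3.55 and 0.90 against 1.17, 1.10 and 0.91. Both of the last contrasts were chosen after the values were seen. In both, Celf1 AKO replicates 1 and 2 lay above all 4 other libraries, and Celf1 AKO replicate 3 lay with or below the controls. Celf1 AKO replicates 1 and 2 were the 2 highest libraries for 5 of 10 members (Npas2, Per1, Nr1d1, Nr1d2 and Ciart), and the 2 lowest for 2 (Per2 and Cry1), beside 15.0% and 18.8% of all genes tested. This pair of libraries was not planned and was singled out after the values of these same members were seen, so the counts are only a description.

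**Figure D2:**
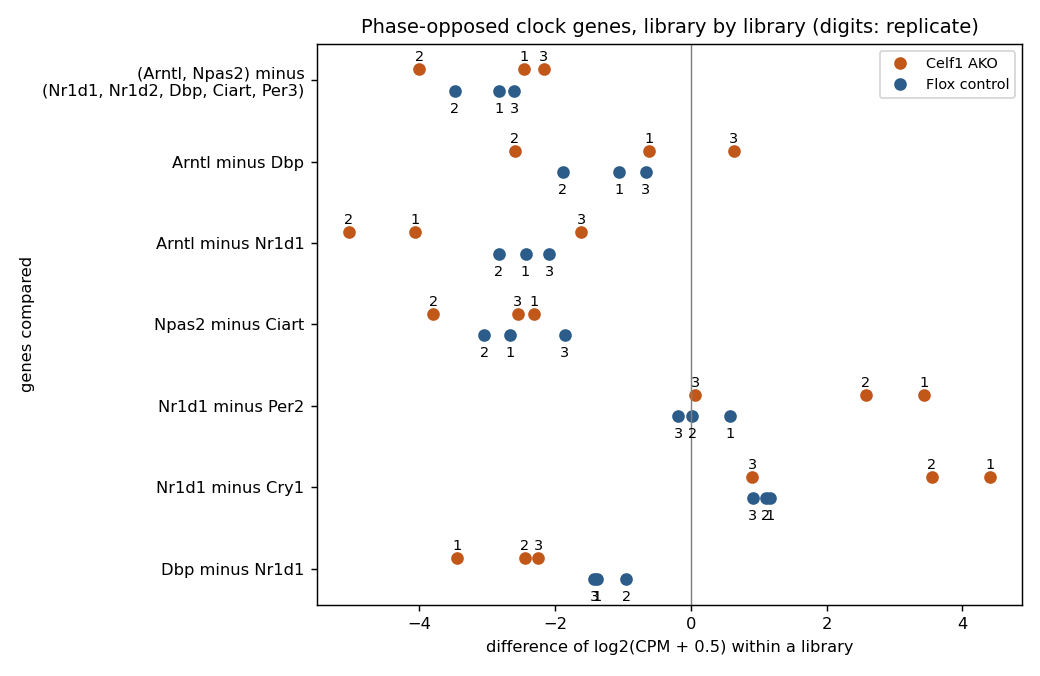
Differences of log2(CPM + 0.5) between clock genes within each library, with Celf1 AKO above and Flox control below each line and digits for replicates. The genes compared are of opposed or shifted phase, except Dbp and Nr1d1, which are usually in phase. The contrasts of Nr1d1 with Per2, Cry1 and Dbp were chosen after the values were seen. The top measure and Arntl minus Dbp mix the genotypes, the pairs of Nr1d1 with Per2 and Cry1 set Celf1 AKO replicates 1 and 2 apart, and Dbp minus Nr1d1 is lower in all 3 Celf1 AKO libraries.

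The rest of the clock was described by 23 further genes, all of them tested. None passed over all genes by edgeR, and at an unadjusted p under 0.05, 4 were higher (Cry2, Bhlhe40, Nfil3 and Csnk1e) and 2 lower (Tef and Hlf), beside 6.75% and 6.17% of all genes. Their median log2 fold change was 0.10, with 15 positive and 8 negative. DESeq2 called 1 of them, Nfil3, higher (adjusted p = 0.0149), beside 2.17% of all genes. Without Celf1 AKO replicate 3, edgeR called 3 higher (Bhlhe40, Cry2 and Btrc) and 0 lower, beside 1.43% and 1.76% of all genes.

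Among the other repressors, Cry2, the second cryptochrome, had a fold change of the opposite sign to Cry1. It was at 137, 169 and 84.9 CPM in Celf1 AKO and 83.6, 75.5 and 65.5 CPM in Flox control, without overlap. Its log2 fold change was 0.80 (SE 0.24, edgeR adjusted p = 0.293), and 1.03 (edgeR adjusted p = 0.0281) without Celf1 AKO replicate 3. Bhlhe40, the E-box repressor DEC1, was at 56.0, 58.9 and 15.6 CPM against 24.2, 18.4 and 17.1 CPM, high in Celf1 AKO replicates 1 and 2 and lowest of all in Celf1 AKO replicate 3. Its log2 fold change was 1.13 (SE 0.45, edgeR adjusted p = 0.357), or 1.53 (edgeR adjusted p = 0.0174) without that library. Its relative Bhlhe41 (0.26) and Timeless (0.12) had adjusted p-values of 0.771 and 0.883 by edgeR.

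The D-box factors also had fold changes of both signs. Nfil3, the D-box repressor also called E4BP4, was at 151, 99.6 and 55.1 CPM in Celf1 AKO and 55.7, 23.7 and 25.1 CPM in Flox control, with Flox control replicate 1 just above Celf1 AKO replicate 3. Its log2 fold change was 1.55 (SE 0.44, edgeR adjusted p = 0.286). Tef, an activator of the same sites, was at 142, 221 and 206 CPM against 231, 285 and 255 CPM, lower in Celf1 AKO without overlap (log2 fold change -0.44, edgeR adjusted p = 0.375). Hlf, the third activator of this family beside Tef and Dbp, was at 7.73, 12.9 and 9.25 CPM against 12.2, 22.7 and 14.9 CPM (log2 fold change -0.74, edgeR adjusted p = 0.345). The repressor thus had a positive fold change and 2 of its 3 competing activators negative ones, while Dbp, the third, had 0.06.

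Activators, receptors and protein-turnover genes had mostly small fold changes. Clock, the usual partner of BMAL1, was at 49.5 to 52.3 CPM in Celf1 AKO and 49.4 to 62.4 CPM in Flox control (log2 fold change -0.10, edgeR adjusted p = 0.736). The ROR receptor genes Rora and Rorb, whose products activate the genes that REV-ERB represses, had log2 fold changes of 0.42 and -0.25. Among kinase, phosphatase and ubiquitin-pathway genes, Csnk1e, a casein kinase that acts on PER, was higher without overlap (log2 fold change 0.36, SE 0.13, edgeR adjusted p = 0.322). Fbxl21, a ligase subunit for CRY, was higher without overlap as well but at 0.17 to 0.79 CPM. Btrc, a ligase subunit for PER, had a log2 fold change of 0.44, and of 0.66 (edgeR adjusted p = 0.0411) without Celf1 AKO replicate 3. Log2 fold changes of the ubiquitin protease gene Usp2 and the ligase subunit gene Fbxw11 were -0.23 and 0.10. The rhythmic output genes Nampt (0.27) and Wee1 (-0.07) did not pass the test.

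**Figure D3:**
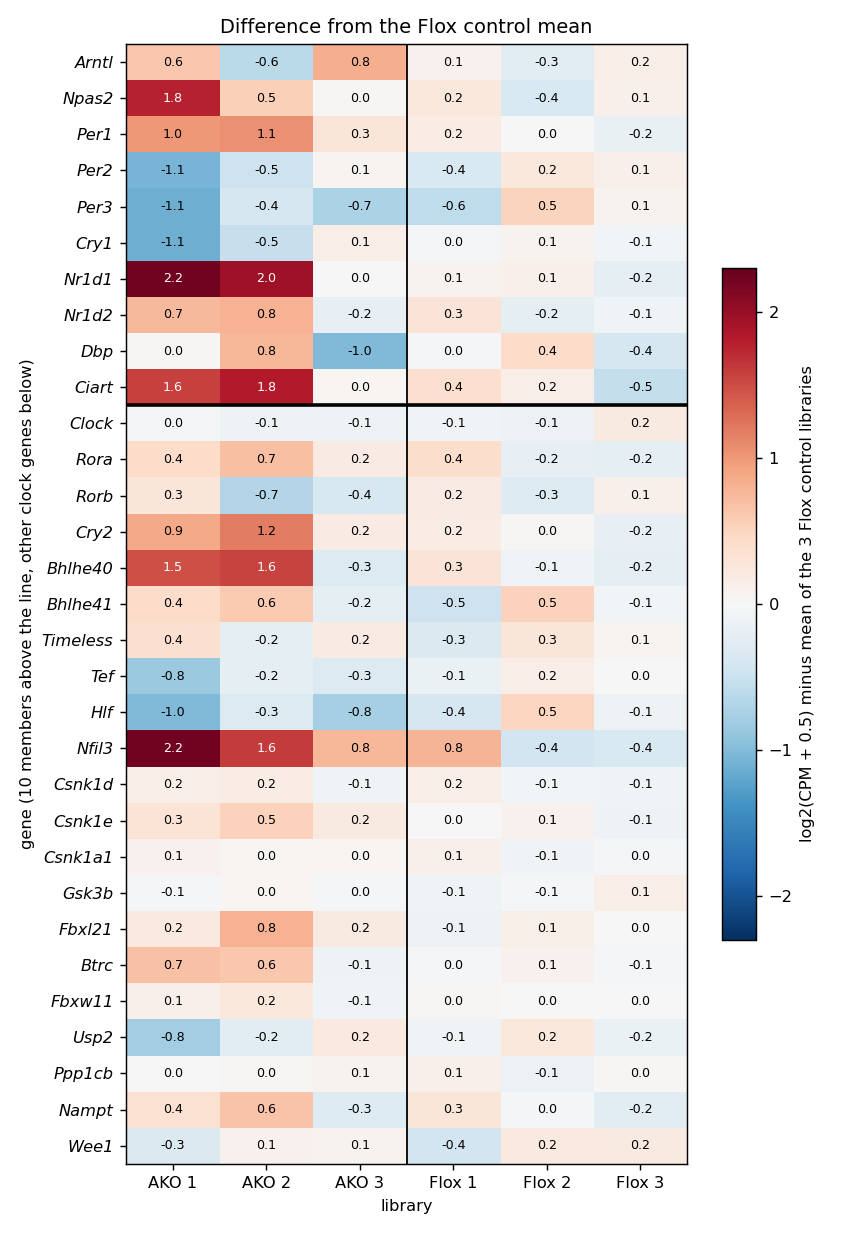
Each cell is log2(CPM + 0.5) of a gene in a library minus the mean of the 3 Flox control libraries, for the 10 members above the line and other clock genes below it. Celf1 AKO replicates 1 and 2 are high for Nr1d1, Ciart, Bhlhe40 and Nfil3 and low for Per2 and Cry1, whereas Celf1 AKO replicate 3 resembles the controls in most of these. Among other genes, Celf1 AKO replicate 3 is above the controls in Arntl and below them in Per3, Hlf and Dbp.

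**Figure D4:**
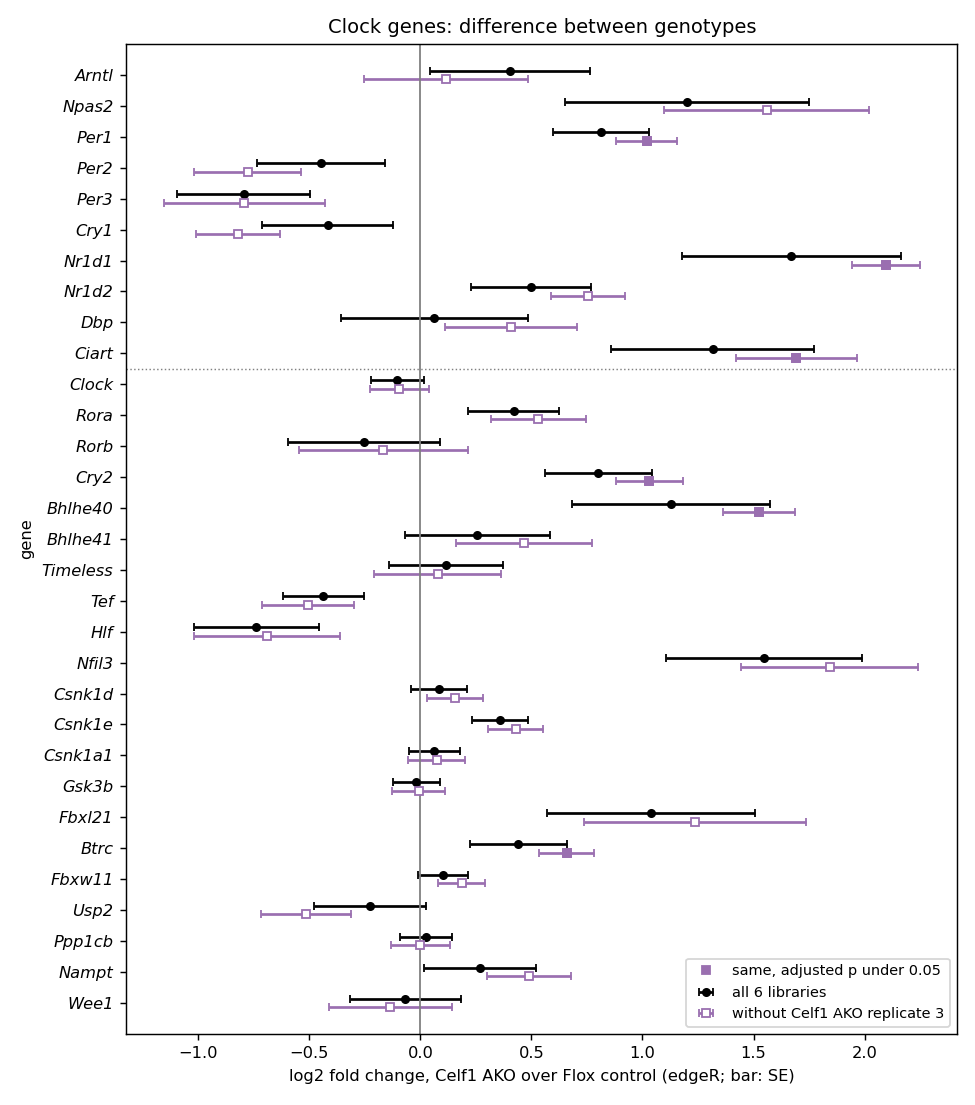
Log2 fold changes with their SE from edgeR for the same genes, on all 6 libraries (circles) and without Celf1 AKO replicate 3 (squares, filled where the adjusted p is under 0.05). With all 6 libraries none of these genes passes, and 6 pass without that library: Per1, Nr1d1, Ciart, Cry2, Bhlhe40 and Btrc.

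Immediate early and cAMP-responsive genes, with which Per1 is often induced, were on average highest in Celf1 AKO replicates 1 and 2, an order that not every gene of the list followed. All 16 listed genes had a fold change above 0 (median log2 fold change 1.42), 11 with an unadjusted p under 0.05 (beside 6.75% of all genes higher), and 0 passed over all genes by edgeR. DESeq2 called 7 of them higher, beside 2.17% of all genes. Without Celf1 AKO replicate 3, edgeR called 9 of the 16 higher, beside 1.43%. Their mean log2(CPM + 0.5) was 6.98, 6.72 and 5.37 in Celf1 AKO replicates 1, 2 and 3 and 5.67, 4.84 and 4.83 in Flox control, so that Flox control replicate 1 was above Celf1 AKO replicate 3. The 3 members of smallest p were Pde4b, a cAMP phosphodiesterase (log2 fold change 1.50), and the transcription factor genes Atf3 (1.43) and Jun (1.92), with edgeR adjusted p-values of 0.238 to 0.252. The part of these genes' common inducers in the levels of Per1, Nr1d1 or Ciart was not tested.

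Glucocorticoid-responsive genes, a list that includes Per1 itself, had 9 of 10 positive log2 fold changes (median 0.56), 4 higher at an unadjusted p under 0.05 (beside 6.75% of all genes) and 0 passing over all genes by edgeR. DESeq2 called 3 higher (beside 2.17%), and edgeR without Celf1 AKO replicate 3 called 2 higher (beside 1.43%). Per1 is itself among the 4, the 3 and the 2. Sgk1, a kinase gene induced by corticosteroids, was at 408, 502 and 335 CPM in Celf1 AKO and 264, 183 and 144 CPM in Flox control, and Zbtb16, a zinc finger factor, at 301, 279 and 205 CPM against 179, 159 and 135 CPM. For both genes every Celf1 AKO library was above every control. Fkbp5 (0.18) and Tsc22d3 (-0.19) are also classical targets, with edgeR adjusted p-values of 0.787 and 0.693. Levels of some markers of other cell types also lay apart: all 6 Schwann cell markers were higher in Celf1 AKO without overlap (summed 431 to 597 CPM against 241 to 310.4 CPM), as were 4 of 6 endothelial markers (summed 929 to 1078 CPM against 531 to 764 CPM), with none of either list at 0 in any library, beside 7.81% of all genes higher without overlap. The summed level of 5 neutrophil markers was 15.6 to 108 CPM in Celf1 AKO and 3.20 to 15.4 CPM in Flox control. Of these markers 2 were higher without overlap, and 1 was at 0 in a library. In bulk tissue, more cells of a type and more RNA per cell cannot be told apart, and the part of these cell types in the clock gene levels was not tested.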

How the data were processed

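RNA from the inguinal fat of 3 Celf1 AKO and 3 Flox control libraries was measured. The authors deposited raw read counts per Ensembl gene, 1 column per library per the file headers, and FPKM values for the same genes. HISAT2, RSEM 1.3.1, GRCm38 and mm10 are listed, without roles, in the submitters' processing notes. The sources used here give neither annotation nor strand setting. The table holds no gene under 53 counts in total.

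Counts were tested with edgeR 4.0.16 in R 4.3.3 (quasi-likelihood test with robust estimation, TMM factors, default expression filter: 16366 genes tested, 261 removed, genotype as the only term), with Benjamini-Hochberg adjustment over all genes tested and 0.05 as the threshold. SE was the log2 fold change divided by the square root of F, CPM is TMM-scaled, and log2 levels add 0.5. DESeq2 1.42.0, limma 3.58.1, other scalings and filters, a replicate block and leaving out each library were alternatives. The scripts were tested on simulated data. Gene names and positions came from GENCODE M21 (GRCm38; 16522 identifiers matched, 105 did not) and promoters from RefSeq. No 2 libraries agreed within sampling noise. Named genes were Celf1, the members, the other clock genes, the 3 genes of smallest p of each companion list and the 5 genes most like Dbp and Arntl. Genes named outside that rule are Thra and Sphk2, taken for their overlap, Hspa1a, named as a copy of Hspa1b, Fkbp5 and Tsc22d3, Acta1, and Cirbp and Rbm3. Some genes within these lists are counted but not reported here by name. Members and lists were chosen with earlier results of these data known.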

Additional observations from a re-analysis of the deposited data

How the results depend on the processing

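The number of genes called over all genes was 2 in the main test (edgeR, all 6 libraries). It was 0 with library sizes alone, with at least 10 counts in every library, with limma-voom and with limma on log2(FPKM + 1) or log2(FPKM + 0.1), 1 with limma on log2(FPKM + 1) without a filter, and 497 with DESeq2. Leaving out 1 library gave 0 to 527, the 527 without Celf1 AKO replicate 3. With DESeq2 the log2 fold changes of Celf1 (-1.19), Per1 (0.84) and Nr1d1 (1.70) passed. Over the fits that leave out 1 library, values ran from -1.32 to -1.12 for Celf1, 0.67 to 1.02 for Per1, 1.32 to 2.10 for Nr1d1, 0.98 to 1.69 for Ciart, -0.45 to 0.41 for Dbp, 0.11 to 0.74 for Arntl, 0.42 to 1.56 for Npas2, -0.78 to -0.17 for Per2, -1.04 to -0.51 for Per3, -0.82 to -0.12 for Cry1 and 0.33 to 0.76 for Nr1d2. Per1, Nr1d1 and Ciart passed in these only without Celf1 AKO replicate 3, as did Celf1. The main value for Dbp, 0.06, turned to -0.093 with limma-voom, -0.074 and -0.087 with limma on log2(FPKM + 1) and log2(FPKM + 0.1), -0.074 on log2(FPKM + 1) without the filter, and -0.45 and -0.12 without Celf1 AKO replicate 2 or Flox control replicate 3. The other 9 members kept their sign under every alternative in which they were fitted, and Npas2 was below the minimum of the filtered FPKM fits. Members with a positive fold change numbered 5 to 7. The phase difference between the groups, 0.09, ran from -0.26 to 0.65 without 1 library and was -1.12 for Arntl minus Nr1d1 and -0.36 for Npas2 minus Ciart. The contrasts added after seeing the data, of opposite sign, gave 1.88 for Nr1d1 minus Per2, 1.89 for Nr1d1 minus Cry1 and 1.63 for Nr1d1, Nr1d2 and Ciart minus Per3, Tef and Hlf. The cause of these differences was not tested.

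Whether the replicate numbers pair the libraries is unknown, as the labels do not say. Deviations from the group means correlated at 0.0709, -0.00842 and 0.273 for numbers 1, 2 and 3, and Celf1 AKO replicate 2 correlated best with Flox control replicate 1 (0.299). With 3 libraries per group such correlations cannot settle pairing. With the replicate block, 12 genes were called, Celf1 had -1.21 (edgeR adjusted p = 0.0476), Dbp had -0.074 and 0 members passed, the smallest adjusted p being 0.125 for Per3. Depth limits Npas2 most, at 58 to 299 counts per library.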

Other observations

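Temperature-responsive genes, which can set clocks in peripheral tissue, were described as a list of 10. With all 6 libraries 0 passed by edgeR, beside 0.0122% of all genes higher and 0% lower, and 0 by DESeq2, beside 2.17% and 0.985%. At an unadjusted edgeR p under 0.05, 2 were higher and 3 lower in Celf1 AKO, beside 6.75% and 6.17% of all genes. The median log2 fold change of the list was -0.47. Cirbp, a cold-inducible RNA-binding protein known to act on clock transcripts, was at 89.6, 88.9 and 48.4 CPM in Celf1 AKO and 55.7, 43.6 and 30.0 CPM in Flox control (log2 fold change 0.81, SE 0.29, edgeR adjusted p = 0.333). It was thus highest in the same 2 libraries as Nr1d1, as were 15.0% of all genes tested. The related Rbm3 was at 145, 148 and 180 CPM against 174, 154 and 128 CPM (log2 fold change 0.05). The 3 genes of smallest p were the mitochondrial chaperonin gene Hspe1 (-0.54), the inducible Hsp70 gene Hspa1b (-1.29), which has a near-identical copy in Hspa1a and is uncertain alone, and the cochaperone gene Dnajb1 (0.91), with edgeR adjusted p-values of 0.293 to 0.308. Without Celf1 AKO replicate 3, 1 of the 10, Dnajb1, passed by edgeR (log2 fold change 1.19, adjusted p = 0.0303), beside 1.43% of all genes higher and 1.76% lower. Dnajb1 was at 159, 140.4 and 70.5 CPM in Celf1 AKO and 78.4, 51.1 and 67.4 CPM in Flox control. Cirbp and Rbm3 were named after their values were seen.

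Outside the 10 members, 10230 genes with a mean of at least 5 CPM were ranked by likeness of log2 CPM to Dbp over the 6 libraries. The most alike were Reep5, Abhd14a, Dixdc1, Sec22a and Faap20. For Arntl they included Cd38, Hk3, Pias1 and Cd44. They are the most alike of 10230 genes over 6 libraries that share depth and composition, so the likeness is a description.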
